A study of Mus musculus with 6 samples.

Results

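The comparison set 2 YAP chromatin immunoprecipitation (ChIP) libraries labelled tumor against 2 labelled normal, 4 of the 6 libraries of the series, and grouped them by label. The material was epithelium of the gastric corpus, the acid-secreting main body of the stomach, which had been isolated with EDTA, then fixed and frozen. The normal mice were wild type (WT). The tumor mice had the genotype CluCreERT2;R26rtTA;HA-Yap+, a tamoxifen-inducible Cre recombinase at Clu, a reverse tetracycline transactivator at Rosa26 and a doxycycline-inducible, HA-tagged Yap, so that the transgene depends on cells in which the Clu locus is active. Per the labels' protocols, given alike for all samples, 2 mg of tamoxifen was injected daily over 5 days, and doxycycline food followed for the 14 days up to collection. The remaining 2 libraries, H3K27ac from 1 normal and 1 tumor sample, were used only to locate YAP summits relative to active chromatin. The labels do not say whether the 2 libraries of a group stem from different mice, so a p-value here measures only the spread between these samples and that spread may be technical.

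YAP is a transcriptional coactivator with no DNA-binding domain of its own. When the Hippo kinases MST and LATS are active they phosphorylate YAP, which is then kept in the cytoplasm and degraded; unphosphorylated YAP enters the nucleus and is held on DNA mainly by TEAD transcription factors, often beside AP-1. In the stomach, YAP activity is known for its part in epithelial repair, metaplasia and tumor growth.

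The words inside the peak names go against 2 of the 4 labels. The libraries labelled normal 1 and tumor 1 carried the word cre, as did the normal H3K27ac library, and those labelled normal 2 and tumor 2 carried Clu_Yap, as did the tumor H3K27ac library. Each library is therefore called by its label below, and every direction between the groups rests on labels that the names contradict for tumor 1 and normal 2. Each library is 1 list of peak summits, single positions at which a peak is highest, on chromosomes 1 to 19 and X. A summit's score is given by the authors as −log10 of the peak's p or q, and it ranked summits within 1 list. Sequencing depth is unknown and can set the length of a list, so values are given for full lists and for equal lists, the best 1574 summits of each library.

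Far more YAP summits were found in the libraries labelled tumor than in those labelled normal. Normal 1 had 1574 summits and normal 2 had 2121, while tumor 1 had 38227 and tumor 2 had 53831. The groups did not overlap. Their means were 46029 ± 11034 (SD, n = 2) in tumor and 1847.5 ± 387 (SD, n = 2) in normal, a 24.8-fold ratio of geometric means (exact two-sided permutation p = 0.333, the smallest that 2 libraries against 2 allow). Without the 2 contradicted libraries the ratio was 34.2, from 1 library a group and with no test. Grouped by the words in the names it was 1.38 (exact permutation p = 0.667), because each group then held 1 long and 1 short list. In bulk tissue, more bound cells and more YAP per cell cannot be told apart. The score at which the equal lists end was 1.64 in normal 1, 4.08 in normal 2, 28.8 in tumor 1 and 44.2 in tumor 2, given here only to describe each list.

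Most tumor summits of the equal lists lay at gene starts and most normal summits did not. This did not hold at the very top. Of the 100 best summits, 29.0% in tumor 1 and 26.0% in tumor 2 lay within 1 kb of a start. The equal lists also reach to different depths. That of normal 1 is its full list, down to a score of 1.64. Those of tumor 1 and tumor 2 are only the upper part of longer lists and end at 28.8 and 44.2. At equal list length, 0.699% of the summits of normal 1 (95% Wilson interval 0.391 to 1.25) and 33.2% of those of normal 2 (30.9 to 35.5) lay within 1 kb of the start of a protein-coding gene. The share was 72.4% in tumor 1 (70.1 to 74.5) and 74.7% in tumor 2 (72.4 to 76.7). The tumor libraries were thus alike and above both normal libraries, and the normal libraries were far apart. The difference was 56.6 points, from means of 73.5 ± 1.62% and 16.9 ± 23.0% (SD, n = 2 each; exact permutation p = 0.333). Grouped by the name words the difference fell to 17.4 points (exact permutation p = 0.667), and without the 2 contradicted libraries it was 74.0 points. Without elements found in all 4 libraries, and at the shorter equal length that this leaves, it was 57.2 points. Intervals cover counting error only.

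The median distance to the nearest start followed the same order at equal length. It was 90871 bp in normal 1 and 19656 bp in normal 2, against 145 bp in tumor 1 and 135 bp in tumor 2 (exact permutation p = 0.333). Within 100 bp of a start lay 35.4% of these summits in tumor 1 and 38.8% in tumor 2. In normal 1, 63.9% lay more than 50 kb from any start, and in normal 2 34.4%.

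**Figure D1:**
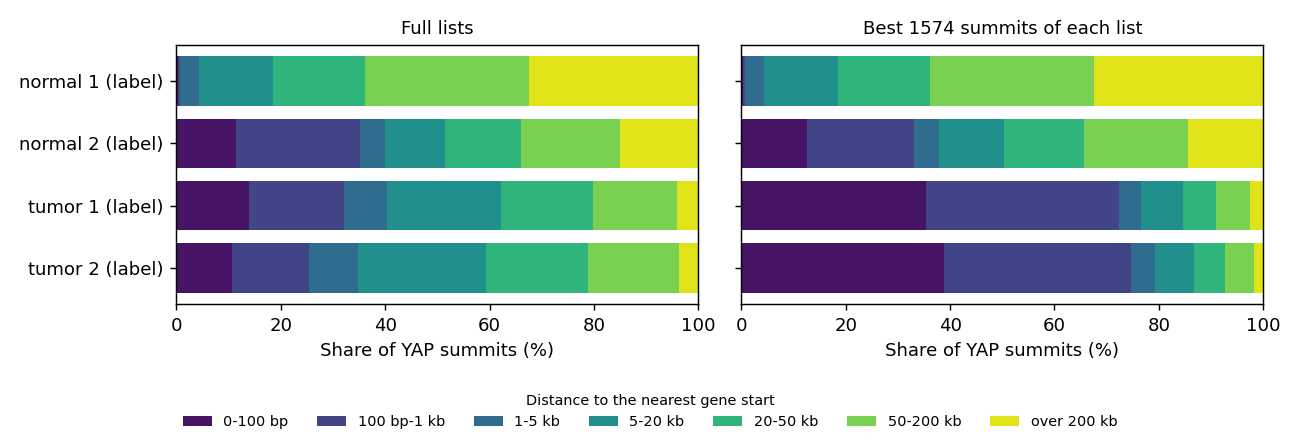
Share of YAP summits (percent) in 7 classes of distance to the nearest gene start, 1 bar per library, for full lists (left) and the best 1574 summits (right). At equal length 72.4% and 74.7% of the summits of the libraries labelled tumor lie within 1 kb, against 0.699% and 33.2% in those labelled normal.

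On full lists the order was different. The share within 1 kb of a start was 0.699% in normal 1 (11 of 1574 summits), 35.2% in normal 2, 32.1% in tumor 1 and 25.3% in tumor 2, so normal 2 was above both tumor libraries. The group difference of 10.8 points was smaller than the spread of the normal libraries (exact permutation p = 1.0), and leaving out normal 1 turned it to -6.48 points. More than 50 kb from a start lay 63.9% of the summits in normal 1, 33.9% in normal 2, 20.2% in tumor 1 and 21.1% in tumor 2, so that both tumor libraries had fewer of these on full lists too. The X chromosome held 9.66% of the summits of normal 1 and 4.48% of those of normal 2, against 2.09% and 1.70% in tumor 1 and tumor 2.

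The share near starts did not fall steadily with rank. Among the 100 best summits it was 29.0% in tumor 1 and 26.0% in tumor 2. At ranks 501 to 1574 it was 78.8% and 80.7%, and in the last class of each list it was 13.4% and 11.7%. In normal 2 it was 1.0% in the best 100 and 40.9% at ranks 501 to 1574, and in normal 1 it was at most 0.838% in every class. In normal 2, tumor 1 and tumor 2 the 100 best summits thus held a smaller share at starts than the ranks just below them.

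**Figure D2:**
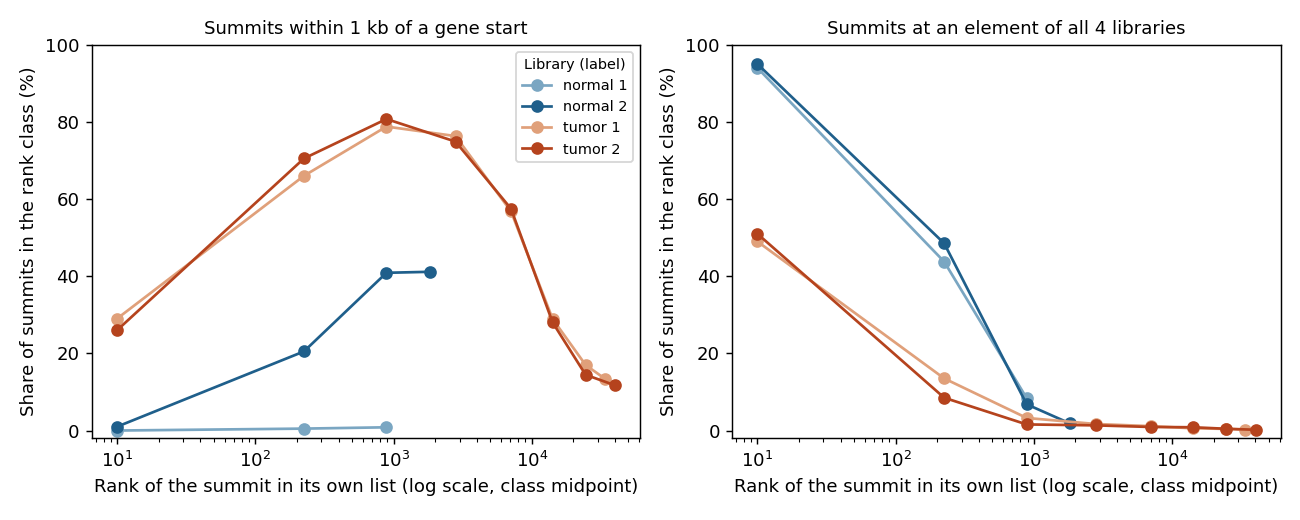
Left, percent of summits at a gene start (within 1 kb), and right, share of summits at an element of all 4 libraries, against rank in the library's own list (log axis, classes by score rank). In both tumor libraries the start share is highest at ranks 501 to 1574 (78.8% and 80.7%), and elements of all 4 libraries make up 94%, 95%, 49% and 51% of the best 100 summits of normal 1, normal 2, tumor 1 and tumor 2.

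In both tumor libraries YAP start summits were spread around the start, with medians closer to it than those of H3K27ac. Among summits within 1 kb of a start of known strand, the median position was 10 bp downstream of the start in tumor 1 and 23 bp downstream in tumor 2, and 47.3% and 44.5% were upstream. At equal length the medians were -36 bp and -25 bp, upstream of the start. In normal 2 the median was 97.5 bp downstream, with 33.3% upstream. H3K27ac summits lay further into the gene, at medians of 190 bp (normal) and 183 bp (tumor), with 25.3% and 18.8% upstream.

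Within normal 2, start summits that had tumor partners differed in position from those that had none. A partner is a summit of another library within 200 bp. The 353 start summits with a partner in both tumor libraries had a median of 14 bp and 43.6% upstream. The 154 with a partner in neither had a median of 307.5 bp and 15.6% upstream, downstream of the H3K27ac medians. These are summits of 1 library and the difference was not tested. A partner must lie within 200 bp of a tumor summit, and tumor start summits cluster at the start. The difference therefore follows in part from how the 2 classes were chosen.

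**Figure D3:**
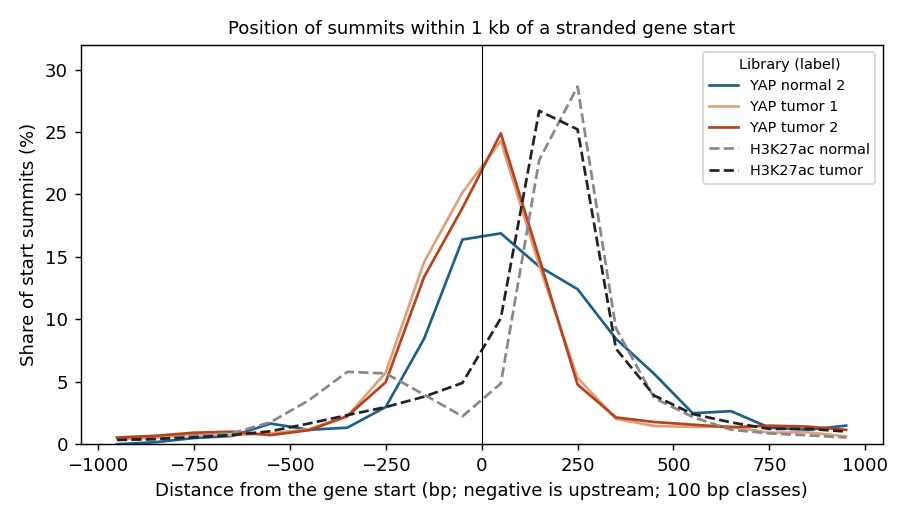
Position of summits within 1 kb of a gene start of known strand, in percent of each library's such summits per 100 bp, for YAP normal 2, tumor 1 and tumor 2 (solid) and H3K27ac (dashed). Normal 1 is left out because it had 10 such summits. The YAP tumor curves peak at the start, the H3K27ac curves between 100 and 300 bp downstream, and the normal 2 curve is the broadest of the YAP curves, with 16.9% at 0 to 100 bp and 12.4% at 200 to 300 bp.

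Sequence was read in promoter windows, 250 bases before to 50 after a start, from RefSeq on GRCm38.p6 for 17274 genes. A summit of both tumor libraries lay inside 4328 of 21045 windows, a summit of normal 2 inside 272 and one of normal 1 inside 4. The 4328 windows belong to 4073 genes, while 10543 of all 21631 genes had a summit of both within 1 kb of a start. A window with no YAP summit can therefore belong to a gene with a start summit. The sequences below are a selection from the best-ranked windows and from YAP/TAZ targets, not a random sample. Matches to TEAD, AP-1 or ETS cores are in capitals and all other bases in lower case. Windows on 1 autosome were left out of this choice. Among the rest, Ipo13 (an importin) and Rad17 (a checkpoint clamp loader subunit) were the best-ranked windows and also held a normal 2 summit. Lrr1 (a ubiquitin ligase receptor) and Slc35b1 (a nucleotide transporter of the endoplasmic reticulum) had none in either normal library. Mapkapk5, a stress kinase gene, was the 1 window of the 10 best with a summit of all 4 libraries. Amotl2 and Lats2 encode negative regulators of YAP that are also its targets. Nsun2, an RNA methyltransferase gene, was the best-ranked window with an ETS core under the same exclusion and was chosen after its values were seen.
Ipo13 (chr4:117914950-117915249, minus strand): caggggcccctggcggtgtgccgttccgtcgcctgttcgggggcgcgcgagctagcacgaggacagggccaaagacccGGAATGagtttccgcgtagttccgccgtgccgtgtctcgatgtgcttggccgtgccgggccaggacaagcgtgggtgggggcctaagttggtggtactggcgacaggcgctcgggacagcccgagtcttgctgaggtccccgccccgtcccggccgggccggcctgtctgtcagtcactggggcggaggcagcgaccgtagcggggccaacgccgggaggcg
Rad17 (chr13:100651012-100651311, minus strand): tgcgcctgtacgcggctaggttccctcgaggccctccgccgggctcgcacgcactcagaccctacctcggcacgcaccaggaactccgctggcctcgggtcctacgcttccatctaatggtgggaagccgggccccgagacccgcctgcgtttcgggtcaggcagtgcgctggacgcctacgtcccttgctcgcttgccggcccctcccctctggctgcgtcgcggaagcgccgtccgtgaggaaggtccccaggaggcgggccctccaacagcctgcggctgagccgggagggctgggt
Lrr1 (chr12:69168564-69168863, plus strand): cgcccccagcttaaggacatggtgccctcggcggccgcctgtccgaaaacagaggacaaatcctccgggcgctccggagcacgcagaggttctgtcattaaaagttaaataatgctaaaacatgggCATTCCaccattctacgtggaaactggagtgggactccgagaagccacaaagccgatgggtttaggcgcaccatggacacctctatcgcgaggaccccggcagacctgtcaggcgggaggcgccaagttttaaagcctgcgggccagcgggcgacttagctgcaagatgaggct
Slc35b1 (chr11:95384606-95384905, plus strand): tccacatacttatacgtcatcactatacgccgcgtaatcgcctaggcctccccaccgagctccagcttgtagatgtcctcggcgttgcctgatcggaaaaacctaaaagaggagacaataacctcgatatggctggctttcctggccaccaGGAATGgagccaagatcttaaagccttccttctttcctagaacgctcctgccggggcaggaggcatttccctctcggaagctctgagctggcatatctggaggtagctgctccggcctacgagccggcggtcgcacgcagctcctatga
Mapkapk5 (chr5:121545843-121546142, minus strand): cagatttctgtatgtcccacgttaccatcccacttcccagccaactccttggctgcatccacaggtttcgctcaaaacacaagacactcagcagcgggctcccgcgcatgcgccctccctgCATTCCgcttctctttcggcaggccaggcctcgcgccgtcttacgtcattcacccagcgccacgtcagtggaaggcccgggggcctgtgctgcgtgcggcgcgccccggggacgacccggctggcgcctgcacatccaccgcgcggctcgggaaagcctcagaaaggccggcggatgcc
Amotl2 (chr9:102717554-102717853, plus strand): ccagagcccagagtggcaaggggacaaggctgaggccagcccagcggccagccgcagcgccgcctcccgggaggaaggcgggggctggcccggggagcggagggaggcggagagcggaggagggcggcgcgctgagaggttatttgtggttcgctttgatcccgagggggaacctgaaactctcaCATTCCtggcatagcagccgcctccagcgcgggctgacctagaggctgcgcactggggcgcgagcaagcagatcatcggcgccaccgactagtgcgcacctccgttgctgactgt
Lats2 (chr14:57746074-57746373, minus strand): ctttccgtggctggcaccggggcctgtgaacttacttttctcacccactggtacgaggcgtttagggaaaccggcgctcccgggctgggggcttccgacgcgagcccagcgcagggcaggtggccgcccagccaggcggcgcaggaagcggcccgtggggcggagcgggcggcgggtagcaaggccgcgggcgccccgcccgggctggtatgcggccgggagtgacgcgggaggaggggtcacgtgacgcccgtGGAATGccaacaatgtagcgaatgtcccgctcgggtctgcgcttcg
Nsun2 (chr13:69611766-69612065, plus strand): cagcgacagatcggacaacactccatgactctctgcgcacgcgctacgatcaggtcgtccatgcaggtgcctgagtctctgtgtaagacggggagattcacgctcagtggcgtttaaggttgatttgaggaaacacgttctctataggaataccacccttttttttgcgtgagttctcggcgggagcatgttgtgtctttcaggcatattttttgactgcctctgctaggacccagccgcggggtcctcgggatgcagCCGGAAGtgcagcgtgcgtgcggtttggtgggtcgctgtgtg

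The distance between summits and capitals varied among these windows. Bases are counted from 1 at the first base printed, and the start is base 251. At Amotl2 the TEAD core begins at base 186, and the summits were at base 172 in tumor 1 (rank 995, score 32.7) and base 179 in tumor 2 (rank 994, score 49.7). At Slc35b1 the core begins at base 152, with summits at bases 159 and 133 (ranks 56 and 79). At Lrr1 it begins at base 127, with summits at bases 128 and 106 (ranks 37 and 71). At Ipo13 it begins at base 79, with summits at base 97 in normal 2 (rank 579), 113 in tumor 1 (rank 44) and 75 in tumor 2 (rank 52). At Amotl2, Slc35b1 and Lrr1 both tumor summits thus lay within 30 bp of where the core begins.

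At Lats2 the TEAD core begins at base 255 and the summits were at bases 289 and 298 (ranks 4821 and 4081), about as far off as the tumor 1 summit of Ipo13. At Mapkapk5 it begins at base 122, while the summits were at bases 274 in normal 1 (rank 552), 300 in normal 2 (rank 251), 276 in tumor 1 (rank 85) and 268 in tumor 2 (rank 92). Rad17 has no searched core, with summits at bases 134 in normal 2 (rank 745), 106 in tumor 1 (rank 59) and 101 in tumor 2 (rank 47). At Nsun2 the ETS core begins at base 259, and the summits were at bases 138 in normal 2, 93 in tumor 1 and 91 in tumor 2. Further windows of the choice were not printed. In Pdap1 the TEAD core begins at base 103, with tumor summits at bases 48 and 32. In Stam it begins at base 223 (summits 129 and 122) and in Ptpn14 at base 105 (summits 270 and 8). In Zfp661 an AP-1 core begins at base 96 (summits 55 and 59). Dzank1, Fyco1, Hadha and Gadd45a have no searched core.

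Over all windows together, the TEAD and AP-1 cores were not more frequent where YAP summits lay. GGAATG, searched on both strands, was in 10.6% of windows with a summit of both tumor libraries (interval 9.72 to 11.6), 9.41% at equal length (7.11 to 12.4) and 13.5% of all windows. A second TEAD spelling, GGAATT, was in 8.71% against 11% of all windows. The AP-1 core TGANTCA, where N is any base, was in 4.81% against 7.04%, and its narrower form TGACTCA, which the wider one contains, in 3.63% against 4.69%. Although 5 of the 10 best-ranked windows held GGAATG, only 6 of the 45 windows ranked 200 or better in both tumor libraries did (13.3%, 6.26 to 26.2), a share like that of all windows. Windows of normal 2 had GGAATG in 12.1% of 272 (8.77 to 16.5).

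Windows with YAP summits were richer in G and C and in an ETS core, which was not the only core to be more frequent. Their mean G and C content was 63.5%, against 56.4% over all windows and 52.4% over windows with no YAP summit. The ETS core CCGGAAG, chosen after the data were seen, was in 24.7% of windows with a summit of both tumor libraries (23.5 to 26.1), 31.2% at equal length, 33.5% of those of normal 2, 11.7% of all and 5.85% of those with no YAP summit. The higher share held within each class of G and C content: below 50% it was 19.4% against 2.80% of all windows, from 50 to 60% 25.1% against 12.6%, from 60 to 70% 27.9% against 19.6%, and from 70% upward 19% against 12.6%. In the same classes GGAATG was in 14.4% against 16.6%, 14.8% against 15.5%, 9.24% against 10.9%, and 7.44% against 6.80%. The lower overall shares of the other 2 cores did not hold in every class. GGAATT was in 19.4% against 17.3%, 15.6% against 12.4%, 6.85% against 6.92%, and 1.76% against 1.90%. TGANTCA was in 14.4% against 12.3%, 7.15% against 6.83%, 3.65% against 4.12%, and 2.27% against 1.97%, higher in 3 of 4 classes. Where a window held a match and a summit, the summit lay within 30 bp of the ETS core in 29.97% of tumor 1 and 27.7% of tumor 2 windows, and within 30 bp of GGAATG in 19.1% and 18.8%. A match is a description of the letters, not a binding site, and sequence around distal summits was not used here.

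Starts that face another start on the opposite strand were frequent among these windows. Such a divergent start, with an opposite-strand start within 1 kb upstream, was counted once per 1 kb. It made up 13.4% of windows with a summit of both tumor libraries, 20.9% at equal length, 17.5% in normal 2, 3.95% of all windows and 2.61% of windows with no YAP summit. Rad17 is such a start, shared with Ak6.

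Most YAP summits at equal length lay at active chromatin. A summit of either H3K27ac library was within 1 kb of 63.0% of the summits of normal 1, 93.8% of normal 2, 94.6% of tumor 1 and 95.6% of tumor 2, so normal 1 stood apart (tumor minus normal 16.7 points; exact permutation p = 0.333). Leaving out normal 1 reduced this to 1.24 points. On full lists the shares were 63.0%, 93.8%, 57.5% and 48.0%, and after a 10 kb shift of the YAP summits they were 6.16% to 11.7%. Normal 1 met the tumor H3K27ac list more often than the normal one, at 59.5% against 25.1%, and normal 2 likewise at 89.2% against 61.8%; the tumor list is also the longer of the 2, with 66532 summits against 22386.

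The tumor libraries resembled each other most. At equal length, tumor 1 shared 63.7% of its summits with tumor 2, and normal 1 shared 26.5% of its own with normal 2. Between the groups, 21.0% of normal 2 summits had a tumor 1 partner and 19.3% a tumor 2 partner, and 8.58% and 6.42% of those of normal 1. On full lists 53.7% and 54.5% of the summits of normal 2, and 30.1% and 26.6% of those of normal 1, had a partner in tumor 1 and tumor 2. After a shift of 10 kb no full-list share was above 2.40%.

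**Figure D4:**
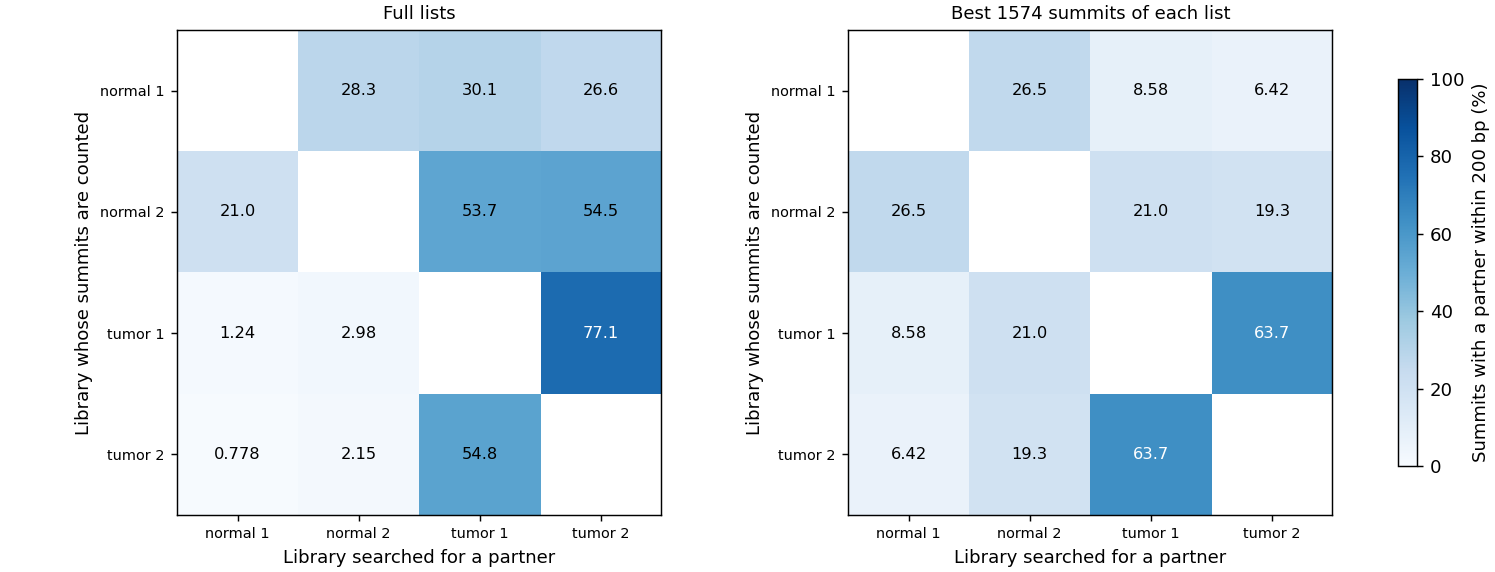
Percent of the summits of each library (rows) with a summit of another library (columns) within 200 bp, for full lists (left) and the best 1574 summits of each (right). The tumor pair shares 63.7% at equal length, above the 26.5% of the normal pair and the 6.42% to 21.0% between labels.

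Sites of 1 tumor library only were weaker and more distal than sites of both. In tumor 1, 29489 summits had a partner in tumor 2, with 34.3% within 1 kb of a start and a median score of 8.39; the 8738 without had 24.8% and 4.47. In tumor 2, the 24344 summits without a partner in tumor 1 (45.2%) had 14.5% near a start and a median score of 5.66, against 14.0 for those with one. In normal 1, 1033 summits (65.6%) had a partner in neither tumor library; 0.484% of them were near a start, 5.91% lay within 1 kb of a normal H3K27ac summit and 48.8% of a summit of either H3K27ac library.

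Elements found in all 4 libraries were few and mostly distal. They accounted for 359 summits in normal 1, 372 in normal 2, and 373 each in tumor 1 and tumor 2. Of the 373, 138 in tumor 1 and 102 in tumor 2 were among the best 1574, so most ranked lower there. Of the 303 normal 2 summits with a partner in all 3 other libraries, 1.65% lay within 1 kb of a start. The examples that follow are high-ranked ones. Near Rpusd4, a mitochondrial pseudouridine synthase gene, the summit 37520 to 37524 bp downstream of the start ranked 1 in each of the 4 libraries. The elements assigned to Mrgprd, a sensory receptor gene (26307 to 26337 bp downstream of its start), Filip1l (38181 to 38225 bp) and Cdk8, which encodes a Mediator kinase (29906 to 29935 bp), ranked 27 or better in every library. The element at Limd1, which encodes a LATS inhibitor, ranked 30, 20, 23 and 17 in normal 1, normal 2, tumor 1 and tumor 2, at 16666 to 16674 bp from the gene's nearer end. Each of these elements had a summit of both H3K27ac libraries within 55 bp. No regions were masked here and the control is not given. Whether these summits reflect YAP binding was not tested. Assignment to the nearest gene within 50 kb says nothing of which gene an element acts on.

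Counted by gene, full and equal lists gave very different numbers. A summit was assigned to 523 of 21631 protein-coding genes in normal 1 (2.42%), 1254 in normal 2 (5.80%), 14465 in tumor 1 (66.9%) and 15448 in tumor 2 (71.4%). Both tumor libraries had one at 13949 (64.5%). Both tumor libraries and neither normal library had a summit at 12662 genes (58.5%), both normal and neither tumor library at 8 (0.0370%), and all 4 libraries at 210 (0.971%). The 8 were Cldn34d, Apba2, Itgbl1, Gm12169, Crispld1, Zfhx4, Syne1 and Spint4, with no best summit within 1 kb of a start. Cldn34d, a claudin-family gene on X, was the only one of them in the best 100 of both normal lists, at ranks 46 and 27 and scores of 60.6 and 149.

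At equal length, 627 genes (2.90%) had a summit in both tumor and neither normal library, and 130 (0.601%) in both normal and neither tumor library. All 4 libraries had one at 52 (0.240%). Per library, 523 genes had a summit in normal 1 (2.42%), 931 in normal 2 (4.30%), 1393 in tumor 1 (6.44%) and 1412 in tumor 2 (6.53%). Leaving out libraries removes conditions from the call, so counts can only stay or rise. The 627 grew to 1107 without tumor 1 and 1085 without tumor 2, and to 1336 without the 2 contradicted libraries. The 130 grew to 577 without normal 1, 421 without normal 2, and 447 without the contradicted libraries. Grouped by the name words, the counts were 53 and 4. The call rules allow no gene to be in these sets and also among the 627 or the 130.

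The 2 gene sets lay at different distances, which largely follows from the lists they were drawn from. A gene of the 130 needs a normal 1 summit, and only 11 of the 1574 summits of normal 1 lay within 1 kb of a start. For the 627, the best summit was at a median of 125 bp from the start in tumor 1 and 132 bp in tumor 2, and within 1 kb for 81.7% and 82.1%. For the 130, it was at a median of 19064.5 bp in normal 1 and 18701 bp in normal 2, and within 1 kb for 3 and 10 genes. Of the 130, 114 had summits in both full tumor lists and 7 in neither, so most were genes whose tumor summits fell below rank 1574.

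Many of the best-ranked genes of the 627 had their best summit close to a start. Polr3f, an RNA polymerase III subunit gene, had its summit 105 bp upstream of the start in tumor 1 (rank 62, score 104) and 97 bp upstream in tumor 2 (rank 46, score 132). Psmd1, a proteasome subunit gene, had it 130 and 132 bp upstream (ranks 54 and 119), and Rpl27, a ribosomal protein gene, 27 and 31 bp downstream (ranks 128 and 87). The nearest normal summit was 256806 bp away at Polr3f and further at the other two. Fyco1 (autophagosome transport), Lrr1, Slc35b1, Hadhb (mitochondrial fatty acid oxidation), Upf2 (nonsense-mediated decay), Ap3m1 (vesicle adaptor), Sh3glb1 (membrane curvature) and Dph6 (diphthamide synthesis) had theirs 82 to 207 bp from the start in both tumor libraries. Polr3f shares its start region with Dzank1 and Hadhb with Hadha. Ak6 was called only because the normal 2 summit 28 and 33 bp from its tumor summits was assigned to the facing gene.

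Other genes of this set had their best summit away from the start. Col19a1, a collagen gene, had 5 summits in each tumor library and none in the normal libraries, the best 27636 bp upstream in tumor 1 (rank 46) and 27623 bp upstream in tumor 2 (rank 50). It lay 63779 bp from a normal and 19672 bp from a tumor H3K27ac summit in tumor 1. Mpp7, a polarity scaffold gene, had 4 and 7, the best 17747 and 17731 bp from the nearer gene end (ranks 50 and 32). Tle3, a corepressor gene, had 7 and 11, the best 1764 and 1729 bp upstream (ranks 109 and 85).

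The best-ranked genes of the 130 had a tumor summit of rank above 1574 at the same place in some cases and no tumor summit in others. At Dpy19l1 the summit ranked 28 in normal 1 and 26 in normal 2 (scores 107 and 158), about 38960 bp upstream. Tumor 1 had its best Dpy19l1 summit 1 bp from a normal one, at rank 2816 and score 23.8, and the best of tumor 2 was 211 bp from the start at rank 4482. At Aadac, a lipase gene, the summits ranked 132 and 119 in the normal libraries and 7450 and 11144 in the tumor libraries, where they lay 9 and 1 bp from a normal summit. At Il23r, a cytokine receptor gene, the summits ranked 154 and 160 in the normal libraries and 2254 and 9627 in the tumor libraries, with scores of 18.8, 24.8, 25.7 and 21.3 in normal 1, normal 2, tumor 1 and tumor 2. Neither ranks nor scores of lists of such unequal length are on 1 scale, so these values show no loss of binding.

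Start-bound genes of normal 2 were also start-bound in the tumor libraries. Of 725 genes with a normal 2 summit within 1 kb of a start, 679 (93.7%) had one in both tumor libraries, against 48.7% of all genes. In normal 1, 11 genes had such a summit and 9 of them had one in both tumor libraries.

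YAP/TAZ target genes, used as readouts of YAP activity, were bound in the tumor libraries at moderate rank. A summit was assigned to 1 of 22 in normal 1 (Nuak2), 1 in normal 2 (Asap1), 21 in tumor 1 and 22 in tumor 2. Both tumor and neither normal library had one at 19 of 22, against 58.5% of all genes, and 15 of 22 had a start summit in both tumor libraries, against 48.7%. At equal length the count was 2, Amotl2 and Gadd45a, against 2.90% of all genes, and the same 2 were the only ones with a summit in both tumor lists (3.99% of all genes). The median rank of the best summit was 12685 in tumor 1 and 10355 in tumor 2, against 8631 and 8710 over all genes with one.

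Individual targets differed in where YAP lay. Amotl2 had 8 summits in each tumor library, and Gadd45a, a stress-response gene, had 4 and 6, the best 11 bp downstream and 25 bp upstream of the start (ranks 1450 and 1505). Ccn1, a matricellular protein gene, had 9 and 10, the best 59 and 40 bp downstream (ranks 12685 and 9733). The best summits of Ccn2, its relative, lay 24027 and 24035 bp from the nearer gene end (ranks 7607 and 7569), and its closest were 345 and 11 bp away. F3, the tissue factor gene, had its best 10065 and 10071 bp upstream (ranks 5558 and 4907). Ankrd1, a muscle ankyrin gene, had 1 summit, in tumor 2 only, 9785 bp upstream at rank 25218. The normal summits at Asap1 (rank 1542 in normal 2, 323 bp from the nearer gene end) and Nuak2 (rank 502 in normal 1) had tumor summits within 257 and 54 bp.

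Genes of the Hippo cascade, which restrains YAP, were bound in the tumor libraries, some of them among the best summits. Of 29 kinases and adaptors, 27 had a summit in each tumor library, 1 in normal 1 and 2 in normal 2; 24 were called tumor and not normal on full lists (58.5% of all genes) and 3 at equal length (2.90% of all genes). Those 3 were Amotl2, Mob1a (a LATS cofactor; 41 and 160 bp downstream of the start, ranks 584 and 796) and Taok1 (a kinase above MST; 55 and 133 bp upstream, ranks 1532 and 1361). Frmd6, an upstream activator, had summits in normal 2 (320 bp downstream, rank 1329), tumor 1 (282 bp upstream, rank 1472) and tumor 2 (374 bp upstream, rank 3650). Of 10 genes for YAP, TAZ, TEAD and VGLL factors, 5 were called on full lists and 0 at equal length, against the same 58.5% and 2.90%. Yap1 itself had a normal 2 summit 357 bp downstream of its start at rank 683 and tumor summits at ranks 12189 and 11729. Whether reads of the transgene add to these was not tested. Vgll4, a YAP antagonist, had summits in all 4 libraries, the best at ranks 634, 1617, 3920 and 6045. Tead1 had 7 summits in tumor 1 and 13 in tumor 2, and Tead3 had its best 9058 and 9096 bp downstream of the start (ranks 5460 and 1766). Wwtr1, which encodes TAZ, had summits 41 and 317 bp upstream (ranks 13104 and 17124).

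AP-1 genes, whose proteins often sit beside TEAD on DNA, were bound in the tumor libraries at ranks near or better than those of all genes. The median rank of their best summit was 8408.5 in tumor 1 and 5786.5 in tumor 2, against 8631 and 8710 over all genes with one. All 14 had a summit in both tumor libraries and none in a normal library, a pattern of 58.5% of all genes. At equal length none had a summit in any library. Over all genes the shares with one were 2.42% in normal 1, 4.30% in normal 2, 6.44% in tumor 1 and 6.53% in tumor 2. With only 14 genes, the absence therefore says little. Fos had 10 summits in tumor 1 and 12 in tumor 2, and Junb had 3 in each, the best 13 bp upstream and 33 bp downstream of the start (ranks 3417 and 5241). Metaplasia and repair genes were counted in the same way. On full lists 16 of 19 SPEM genes and 20 of 24 regenerative genes were called tumor and not normal (58.5% of all genes). At equal length 0 and 1 were called (2.90% of all genes). SPEM is spasmolytic polypeptide-expressing metaplasia, a gastric injury lineage. The 1 was Hbegf, a growth factor gene, at ranks 380 and 487 and 66 and 101 bp from the nearer gene end. Clu, whose locus drives the Cre, had summits 97 and 65 bp from its nearer end in tumor 1 and tumor 2 (ranks 2470 and 3098). Sox9, a progenitor factor gene, had 5 summits in each tumor library at ranks 12055 and 13237.

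Start summits at genes of gastric and other cell types were counted against the share of all genes. Start summits in both tumor libraries were assigned to 12 of 13 pit (mucous surface) cell genes, 10 of 20 parietal, 8 of 14 chief cell genes and 17 of 20 gastric transcription factors, against 48.7% of all genes. The same held for 1 of 20 immune, 2 of 18 stromal, 4 of 18 endocrine and tuft, 2 of 14 squamous and 0 of 14 intestinal genes. As a check of the tissue, normal H3K27ac lay within 1 kb of a start at 11 of 13 pit and 14 of 20 parietal genes, and tumor H3K27ac at 7 and 17. Over all genes these shares were 51.2% and 67.3%. Normal and tumor H3K27ac lay there at 1 and 3 of 20 immune, 3 and 8 of 18 stromal, 2 and 11 of 18 endocrine and tuft, 1 and 5 of 14 squamous, and 1 and 4 of 14 intestinal genes. At equal length 1 of 13 pit, 0 of 20 parietal and 0 of 14 chief cell genes were called, against 2.90% of all genes. Counts this small do not set these genes apart from all genes. The 1 was Foxq1, a pit cell factor gene (ranks 1141 and 1347). Its best summits were 2 different elements, 19080 and 10400 bp from the nearer gene end. Muc5ac, the pit cell mucin gene, had 4 and 5 tumor summits, the closest 37 and 67 bp from a gene end, and Atp4a, the proton pump gene of parietal cells, had 2 and 3, the best 5615 and 5472 bp upstream. Xbp1, a secretory cell factor gene, had a normal 2 summit 465 bp downstream (rank 1306) and its best tumor summits 35173 and 35152 bp upstream (ranks 2137 and 6111). Among gastric transcription factors, Elf3 had 8 and 12 tumor summits, the best 30909 and 30810 bp downstream (ranks 3435 and 1371), and Klf5 had its best 78 and 93 bp from a gene end (ranks 3107 and 1382). Whether numbers of cells of each kind moved with these counts was not tested.

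Proliferation, junction and housekeeping genes were bound at their starts. All 25 proliferation genes had a tumor 1 and a tumor 2 summit within 1 kb of a start, against 55.5% and 59.7% of all genes. None had a normal 1 or normal 2 summit there. Over all genes those shares were 0.0509% and 3.85%, so among 25 genes the absence says little. Normal H3K27ac marked 14 of these 25 and tumor H3K27ac 24, against 51.2% and 67.3% of all genes. On full lists 24 were called tumor and not normal (58.5% of all genes), and at equal length 1 (2.90%), Mcm7 (a replication helicase subunit; 147 and 130 bp downstream, ranks 1022 and 754). Of 19 junction and polarity genes, 15 and 1 were called, against 58.5% and 2.90% of all genes; the 1 was Ctnnb1, the beta-catenin gene (20 bp upstream and 37 bp downstream, ranks 930 and 1124). Ctnna1, its alpha-catenin partner, had summits in normal 2 (rank 382), tumor 1 (rank 630) and tumor 2 (rank 208). Of 18 housekeeping genes, 15 were called on full lists (58.5% of all genes) and 2 at equal length (2.90%), Polr2a (ranks 413 and 417) and Psmb2 (ranks 586 and 639).

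**Figure D5:**
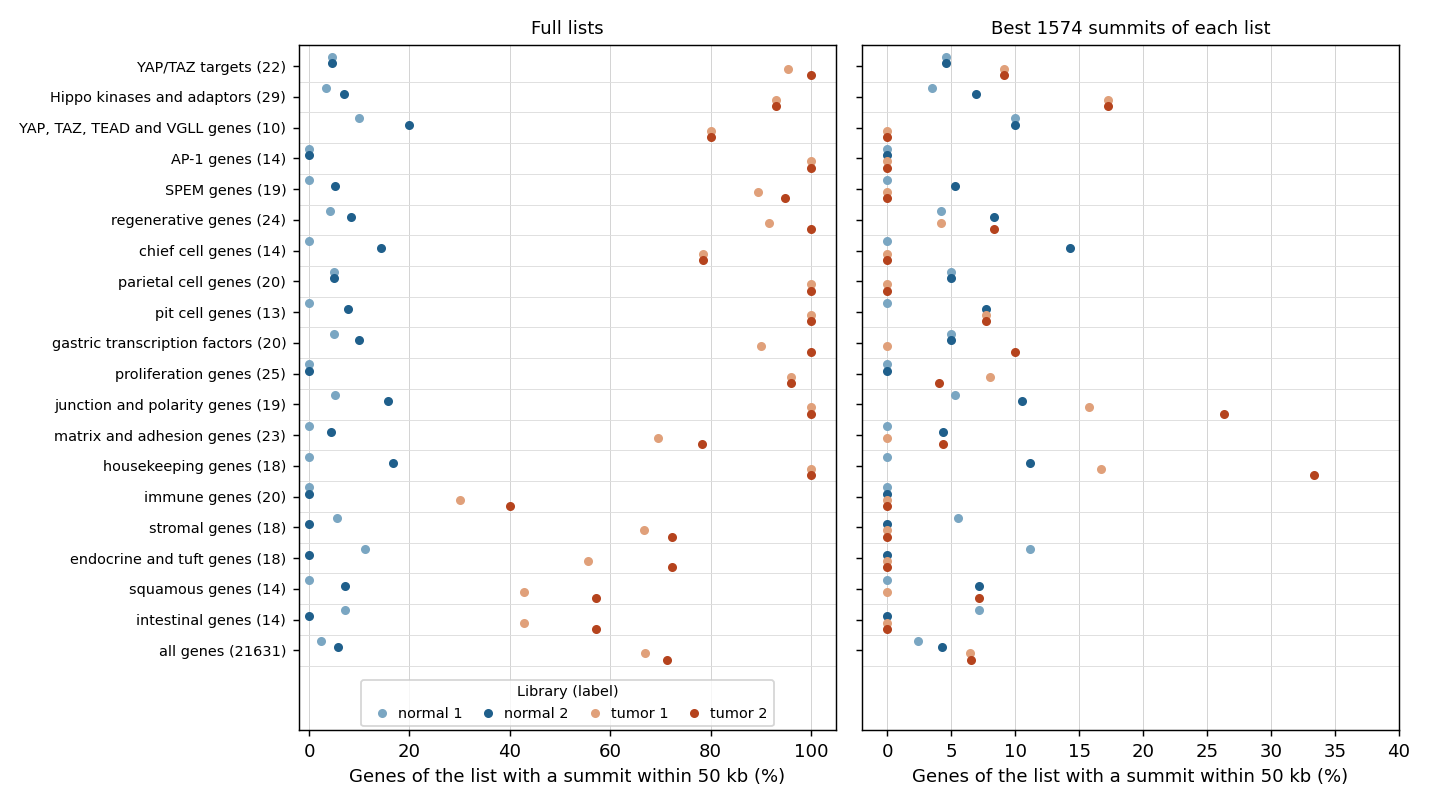
Share of the genes of each list (number matched in brackets) with a YAP summit within 50 kb, 1 point per library, for full lists (left) and the best 1574 summits (right); the last row is all 21631 genes. On full lists both tumor libraries lie right of both normal libraries in every list, while at equal length the points mix and several lists are at 0.

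Ribosomal protein genes were picked by symbol after the data were seen. Of 77 cytosolic ribosomal protein genes, 0 had a summit in normal 1, 4 in normal 2, 69 in tumor 1 and 71 in tumor 2. At equal length the counts were 0, 4, 16 and 19. Of all genes, 6.44% and 6.53% had one in tumor 1 and tumor 2 at equal length. Of 1465 odorant and pheromone receptor genes, 37 had a summit in normal 1, 16 in normal 2, 78 in tumor 1 and 81 in tumor 2. At equal length the counts were 37, 12, 4 and 2. The 37 of 1465 in normal 1 are a share near the 2.42% of all genes. Those of normal 2 lie far below its 5.80% of all genes on full lists and 4.30% at equal length. Those of the tumor libraries likewise lie far below their own shares of all genes.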

How the data were processed

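YAP and H3K27ac ChIP was sequenced as 50 bp paired reads, per the labels' protocols. Per the submitters' processing notes, Bowtie2, MACS2 and the builds GRCm38 and mm10 were used. The deposited values are 1 summit list per library with a −log10 p or q score; which of the 2 it is, the threshold, the control and the depth are each not given in the sources at hand. Summits on chromosomes 1 to 19 and X were kept, with 111, 63, 129 and 179 others left out in normal 1, normal 2, tumor 1 and tumor 2. Equal lists hold each library's best 1574 scores.

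Gene starts were RefSeq starts with strand for 17274 of 21631 protein-coding genes and both gene ends for the other 4357, for which distances have no direction. A summit was assigned to the nearest start within 50 kb. A gene was called where the groups did not overlap in having a summit. Partners lay within 200 bp, and the H3K27ac window was 1 kb. Values per library were compared by the exact two-sided permutation test (2 against 2, smallest p 0.333). Intervals are 95% Wilson. Motifs were matched on both strands of 300-base windows. Distances, partners and the test were checked on simulated data. Python 3.11.15, numpy 2.4.6, pandas 2.3.3, scipy 1.17.1 and matplotlib 3.10.9 were used.

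The members and gene lists were chosen with earlier results of these data known. Of 350 list genes 348 matched, over 19 lists. Motifs other than TEAD and AP-1, and families picked by symbol other than olfactory receptors, were chosen after the values were seen. Named genes were all YAP/TAZ targets, up to 6 of every other list by the worse tumor rank, the 15 best of each group pattern, the 10 best of all 4 libraries, and genes of printed promoters; Nsun2 lies outside this rule. Alternatives were each library left out, the replicate block, regrouping by name words, shorter lists, a score minimum of 5, other windows and motif spellings.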

Additional observations from a re-analysis of the deposited data

How the results depend on the processing

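With 2 libraries a group no test could pass a threshold of 0.05, so the p-values say nothing of stability. Leaving out each library in turn gave differences in the full-list share near starts from -6.48 to 28.0 points, reversed without normal 1. The count of genes with summits in both tumor and neither normal library at equal length ranged from 635 to 1107, and that of both normal and neither tumor library from 135 to 577. Leaving out libraries removes conditions from the call, so these counts could only stay or rise. All 627 and all 130 reported genes were kept. Regrouping by name words gave 33 such tumor genes on full lists, and 53 tumor and 4 normal genes at equal length. The call rules allow no gene in both groupings, so sharing with the reported genes could not be measured. Without the 2 libraries whose names go against their labels, an alternative chosen after seeing the data, the equal-length counts were 1336 and 447. With lists of 500 summits they were 185 and 66. The normal count was 55 without elements of all 4 libraries, 36 with starts within 10 kb, and 43 with every gene within 10 kb, the last chosen after seeing the data. Of 348 list genes, 251 were called on full lists, against 58.5% of all genes, and 10 at equal length, a share near the 2.90% of all genes. The AP-1 share of bound minus all windows was -2.23 points and -1.06 with the narrower spelling. Apart from the counts with libraries left out, the cause of these moves was not tested. With the replicate number as a block the values stayed at 24.8-fold, 10.8, 56.6 and 16.7 points and -55123.5 bp, with an exact permutation p of 0.5, the smallest that 2 pairs allow, or 1.0 for the full-list share. The labels say nothing of pairing, and the library 1 minus library 2 differences of the groups correlated at r = 0.245 over 536 bins of 5 Mb. Unknown depth limits every comparison of list lengths and of full lists, and a missing summit does not show that a gene was unbound.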
